A study of Mus musculus with 61 samples.

Results

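RNA splicing and processing genes were followed through the chromatin data of day 3 of reprogramming in mouse fibroblasts. The members are the genes of the deposited Sono-seq table whose symbols begin with Hnrnp, Hnrp, Sf3a, Sf3b, Srsf, Sfrs, Snrp, Prpf, U2af or Cpsf, or with Lsm, Ddx, Dhx or Rbm and a digit. They are 70 of the 5154 genes of the table, with 81 of its 5513 promoter start sites and 249 of its 14265 enhancers. The symbol rule uses no measured value, but it was chosen with earlier results of these data known. Names are written as in the files, so that Sfrs1, Sfrs2 and Sfrs13a stand for the genes now called Srsf1, Srsf2 and Srsf10, Rbm9 for Rbfox2, Hnrpdl for Hnrnpdl and Ddx39 for Ddx39a.

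The cells were fibroblasts of E13.5 embryos of the strain Black6-129X1/SvJ. All groups carried Col1a1::tetOP-OKSM, a doxycycline-inducible cassette of Oct4, Klf4, Sox2 and Myc, together with R26-M2rtTA, which supplies the transactivator that doxycycline switches on. Every group also received doxycycline in medium for embryonic stem (ES) cells with serum, LIF and ascorbate, so that the cassette was induced in control and knockdown cells alike. Control cells had a hairpin against Renilla luciferase. Knockdown cells had a hairpin against CAF-1, the chaperone complex that places histones on newly replicated DNA. Chaf1a, the largest subunit of that complex, was targeted by either of 2 hairpins in the Sox2 libraries, named Chaf1a.166 and Chaf1a.2122, while the labels of the Sono-seq libraries give only a knockdown of CAF-1. Sono-seq reads the DNA freed by sonication of cross-linked chromatin and is richer in accessible regions. The 6 Sono-seq libraries, 3 per condition, are summed up in the table by 1 value per region and condition. Sox2 binding positions come from 1 immunoprecipitate per hairpin, made with a goat antibody and set against the input of the same cells. Neither measure therefore has a replicate value, and no test between conditions was possible. The knockdown itself and the fibroblast identity of the cells could not be checked, because no RNA values were used here. Read depth of the Sox2 and Sono-seq libraries is unknown.

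Splicing removes introns from the pre-mRNA. The spliceosome is built from small nuclear ribonucleoproteins (snRNPs), whose RNAs are held by Snrp and Lsm proteins, and DEAH-box and DEAD-box helicases drive its rearrangements. SR proteins and heterogeneous nuclear ribonucleoproteins (hnRNPs) bind exons and introns and bias which splice sites are used, and cleavage and polyadenylation factors form the end of the mRNA. Most of these genes are expressed in all cell types from promoters rich in CpG. The symbols also take in relatives with other tasks, such as Dhx29, a translation initiation helicase, Ddx58, a sensor of viral RNA also known as RIG-I, and Lsm14a and Lsm14b of cytoplasmic RNA granules.

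The clearest contrast between the members and the other genes lay in Sox2 positions close to their start sites, not in their response to the knockdown. Within 1 kb of a start site, 27 of 70 members (38.6%) had a Sox2 position in at least 1 of the 3 lists, where 17.5% of all genes of the table had one. In all 3 lists at once, 12 members (17.1%) had such a position, against 6.09% of all genes. By contrast, the Sono-seq values of member promoters moved little between control and knockdown, and 10 of 81 were at least 1.2-fold higher and 11 lower. The main distance is 10 kb, and that of 1 kb was added after values were seen. No test was made of any of these shares.

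At 10 kb the members were ahead in each list by a smaller factor. Of the 70 members, 32 (45.7%) had a Renilla position within that distance, where 29.3% of all genes did. The Chaf1a.166 list gave 25 members (35.7%) beside 28.5% of all genes. The Chaf1a.2122 list gave 32 (45.7%) beside 33.4%. A position in any list was found for 40 members (57.1%), against 41.3% of all genes, and positions in all 3 lists for 21 members (30%), against 20.8%. At 1 kb the single lists gave 21 members (30%) for Renilla, against 10.7%, then 17 (24.3%) for Chaf1a.166, against 10.2%, and 20 (28.6%) for Chaf1a.2122, against 12.6%. The members were thus ahead in the control list and in both knockdown lists, at 10 kb least in Chaf1a.166, the shortest list. With the 3 lists at equal length, 25 (35.7%, Renilla), 25 (35.7%, Chaf1a.166) and 26 members (37.1%, Chaf1a.2122) had a position within 10 kb. Other genes gave 26.3%, 28.4% and 27.9%, so the leads in the Renilla and Chaf1a.2122 lists were smaller. Any list then gave 33 members (47.1%), against 37.2% of other genes. The lists were not tested against each other. For a position in any list, the members (85.7%) and the other genes (79.1%) lay closest together at 50 kb. For positions in all 3 lists, 68.6% and 55.7% at 50 kb were further apart in points than 30% and 20.7% at 10 kb.

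**Figure D1:**
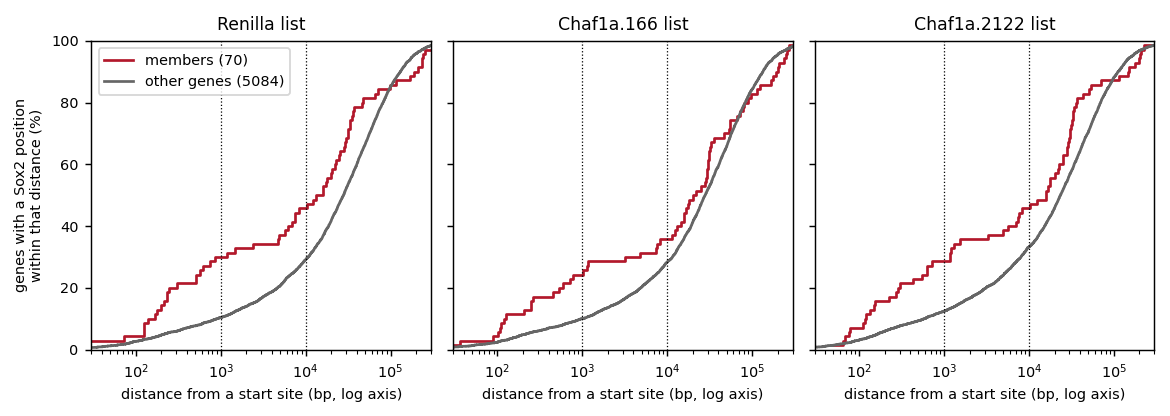
Share of genes (y axis, percent) with a Sox2 position within a given distance of a start site (x axis, bp, log scale), in each of the 3 lists, for the 70 members (red) and the 5084 other genes (grey); dotted lines mark 1 kb and 10 kb. The red line lies above the grey one at 1 kb in all 3 lists, at 30%, 24.3% and 28.6% of members against 10.4%, 10% and 12.4% of other genes.

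The share within 1 kb was also set out by the Sono-seq level of the promoter, with genes placed in quartiles. In the lowest quartile of mean level, 6 of 18 members (33.3%) had a position in any list, against 17.2% of 1271 other genes. In the next quartiles the members gave 8 of 18 (44.4%), 8 of 23 (34.8%) and, at the highest levels, 5 of 11 (45.5%). Other genes of the same quartiles gave 18.4%, 17.1% and 16.3%. At 1 kb the members were ahead in all 4 quartiles, and among other genes the share hardly moved with the level. At the main distance of 10 kb they were not ahead in the lowest quartile, with 7 of 18 members (38.9%) against 38%. The next quartiles at 10 kb gave 11 of 18 (61.1%), 14 of 23 (60.9%) and 8 of 11 (72.7%). Other genes of those quartiles gave 42.1%, 41.6% and 42.6%.

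The hnRNP genes made up 9 of these 27. Of the 11 hnRNP members, 9 had a Sox2 position within 1 kb in some list and 6 had one in all 3 lists. Without this family, 18 of 59 members (30.5%) remained within 1 kb of a position in any list and 6 (10.2%) in all 3, still above the 17.2% and 5.94% of other genes. Hnrnpc, a protein that packages nascent transcripts, starts on chromosome 14 at 52723703 (mm9). On its upstream side the nearest positions were at 246 bp in the Renilla list, 249 bp in Chaf1a.166 and 225 bp in Chaf1a.2122. Hnrnpl, which represses or activates exons through CA-rich RNA, starts on chromosome 7 at 29595908, with positions 507, 454 and 428 bp upstream in the same order of lists. Hnrnpa2b1 (chromosome 6, 51419893), a splicing and RNA transport factor, had positions 126, 36 and 77 bp upstream. All 3 genes carried their positions on the upstream side.

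Hnrnpr (chromosome 4, 135866890) had positions 198, 206 and 300 bp upstream of the start in the Renilla, Chaf1a.166 and Chaf1a.2122 lists. Hnrpdl (chromosome 5, 100468241), a relative of the AU-rich element binder Hnrnpd, had positions 615 and 718 bp upstream in the Renilla and Chaf1a.166 lists and 121 bp downstream in the Chaf1a.2122 list. Hnrnpf, a binder of G-tracts, has 4 start sites in the table, and the positions lay 512, 534 and 550 bp downstream of the one at 117867311 on chromosome 6. Another 3 hnRNP genes had positions in 2 of the lists. Hnrnpa1 (chromosome 15, 103070862), a major repressor of exon inclusion, had them 236 bp (Renilla) and 149 bp (Chaf1a.2122) upstream, and the nearest Chaf1a.166 position was 11362 bp away. Hnrnpab (chromosome 11, 51420383) had them 5 bp (Renilla) and 79 bp (Chaf1a.2122) from the start. Hnrnph1 (chromosome 11, 50191220), a G-tract binder like Hnrnpf, had them 304 bp (Renilla) and 247 bp (Chaf1a.166) downstream. Hnrnpa3 missed the limit narrowly, with a Chaf1a.2122 position at 1176 bp, and Hnrnpul1 had no position within 10 kb.

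The promoters of 4 hnRNP genes with close Sox2 positions are shown because they share a sequence feature. Each line gives the 250 bases before the start in the gene's own direction, from RefSeq on GRCm38.p6. The files use mm9, so no deposited position was placed in them. Capitals mark CCAAT or its reverse complement ATTGG, the box bound by NF-Y at many promoters. The stretches are chr14:52104022-52104271, minus strand (Hnrnpc), chr7:28810640-28810889, plus strand (Hnrnpl), chr11:51606882-51607131, minus strand (Hnrnpab) and chr15:103240147-103240396, plus strand (Hnrnpa1).
Hnrnpc: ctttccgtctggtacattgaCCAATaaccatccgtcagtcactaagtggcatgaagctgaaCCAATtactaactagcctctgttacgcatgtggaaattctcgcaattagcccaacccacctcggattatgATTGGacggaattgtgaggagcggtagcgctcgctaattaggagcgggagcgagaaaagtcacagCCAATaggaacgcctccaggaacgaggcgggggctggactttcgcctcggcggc
Hnrnpl: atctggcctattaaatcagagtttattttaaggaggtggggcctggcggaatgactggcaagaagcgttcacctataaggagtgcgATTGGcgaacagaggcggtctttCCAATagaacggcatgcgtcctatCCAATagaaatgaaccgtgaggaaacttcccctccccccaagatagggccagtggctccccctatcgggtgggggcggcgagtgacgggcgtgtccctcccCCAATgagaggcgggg
Hnrnpab: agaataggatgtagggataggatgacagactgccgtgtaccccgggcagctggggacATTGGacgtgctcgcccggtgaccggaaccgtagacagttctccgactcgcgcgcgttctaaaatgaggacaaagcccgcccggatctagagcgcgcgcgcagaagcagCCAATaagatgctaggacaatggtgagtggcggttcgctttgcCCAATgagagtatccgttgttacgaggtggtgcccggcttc
Hnrnpa1: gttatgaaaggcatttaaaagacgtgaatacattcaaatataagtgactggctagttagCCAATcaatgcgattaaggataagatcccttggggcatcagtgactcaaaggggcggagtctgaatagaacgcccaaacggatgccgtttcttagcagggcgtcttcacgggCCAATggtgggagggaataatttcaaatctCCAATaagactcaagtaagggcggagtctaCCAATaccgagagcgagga

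The promoters of Hnrnpc, Hnrnpl and Hnrnpa1 hold 4 such boxes each and that of Hnrnpab holds 3. Over the 300 bases from 250 before to 50 after the start, 2 or more boxes were found for 7 of the 11 hnRNP genes in at least 1 RefSeq promoter. Of these 7 genes, Hnrnpa3 and Hnrnpul1 had no Sox2 position within 1 kb. Hnrnpa2b1, Hnrnpf and Hnrpdl had positions within 1 kb in all 3 lists but at most 1 box in any promoter. No share by gene was worked out for genes outside the members. Counted by promoter, 2 or more boxes were in 7 of 20 hnRNP promoters (35%) and 9 of 61 promoters of the other members (14.8%). They were in 686 of 4487 promoters (15.3%) of the other genes of the Sono-seq table, so the members outside the hnRNP family were near that share. Of all 32851 promoters of the sequence table, 11.7% had them. The members near Sox2 at 1 kb had 2 or more boxes in 11 of 41 promoters (26.8%) and the members without in 5 of 40 (12.5%). For the other genes of the Sono-seq table, the shares were 19.7% with and 14.4% without Sox2 at 1 kb. This motif was searched for after the sequences had been read. Promoters of 1 gene overlap in part, and the matches are letters, not bound sites.

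Of the letters typical of SOX sites, one pair was less and the other more frequent in member promoters than in those of the other genes, each in few promoters. AACAAT or ATTGTT occurred in 3 of 81 member promoters (3.7%), which belong to 60 members, and in 5.13% of promoters of the other genes in the Sono-seq table. AACAAAG or CTTTGTT occurred in 4 (4.94%), against 3.57%. Among the members with Sox2 at 1 kb, the first pair was in 1 of 41 promoters (2.44%), while other genes with Sox2 at 1 kb had it in 9.81% and those without in 4.15%. The ETS letters CCGGAAG or CTTCCGG were in 21 member promoters (25.9%), against 17.9% of the other genes' promoters and 8.86% of all promoters. The TATA letters TATAAA or TTTATA were in 10 (12.3%), against 6.93% and 13.6%. The median GC content was 61% in members and 62% in the other genes of the table, above the 52.7% of all promoters. Both strands were searched for each motif, and none of these letter groups contains another.

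Among the snRNP proteins, 3 of 4 members had a Sox2 position within 1 kb in some list and 1 had one in all 3 lists. The 4 genes are too few to set against the 17.5% of all genes with one in any list. Snrpc, the U1 protein that helps to recognise the upstream splice site of the intron, starts on chromosome 17 at 27977031. Upstream of it, positions were found at 126 bp in the Renilla list, 108 bp in Chaf1a.166 and 134 bp in Chaf1a.2122. Snrpa (chromosome 7, 27981290), the U1 protein bound to a loop of the U1 RNA, had a Renilla position 10 bp downstream and a Chaf1a.2122 position 69 bp upstream. Snrpd3 (chromosome 10, 74980786), a core Sm protein, had only a Chaf1a.2122 position, 112 bp upstream, with 330734 bp to the nearest one of Renilla. The score of that Chaf1a.2122 position ranked 16834 of 19319. The Sm protein Snrpg had positions of Renilla and Chaf1a.2122 at 6919 and 6975 bp.

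RNA-binding Rbm genes and helicases made up most of the remainder. Rbm25, a factor of U1 function and of alternative splicing, starts on chromosome 12 at 84973183. It had upstream positions at 141 bp in the Renilla list, 110 bp in Chaf1a.166 and 119 bp in Chaf1a.2122, and their scores ranked 3984 of 17681, 4754 of 15888 and 2660 of 19319. Dhx38, the human PRP16 homologue that acts in the second step of splicing, had positions 236, 262 and 285 bp from its start on chromosome 8 at 112089501. Dhx34 (chromosome 7, 16807381), a factor of nonsense-mediated decay, had them 72, 101 and 65 bp upstream. Ddx5 (chromosome 11, 106649808), a DEAD-box helicase and transcriptional coregulator, had them 752, 781 and 720 bp downstream. Cpsf4l, a relative of a cleavage and polyadenylation subunit and the only Cpsf member, has start sites at 113570840 and 113571331 on chromosome 11. The positions lay 170, 120 and 154 bp upstream of the second.

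The promoters of Snrpc and Rbm25 are shown because both had Sox2 in all 3 lists a short way upstream and they differ in base composition. They are chr17:27839837-27840086, plus strand (Snrpc) and chr12:83635460-83635709, plus strand (Rbm25), 250 bases before the start on GRCm38.p6 from RefSeq, with capitals for the ETS letters in Snrpc and the TATA letters in Rbm25.
Snrpc: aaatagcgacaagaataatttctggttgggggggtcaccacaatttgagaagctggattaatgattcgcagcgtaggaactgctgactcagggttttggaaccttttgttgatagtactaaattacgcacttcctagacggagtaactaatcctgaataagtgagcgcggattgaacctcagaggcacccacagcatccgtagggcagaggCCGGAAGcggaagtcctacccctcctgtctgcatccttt
Rbm25: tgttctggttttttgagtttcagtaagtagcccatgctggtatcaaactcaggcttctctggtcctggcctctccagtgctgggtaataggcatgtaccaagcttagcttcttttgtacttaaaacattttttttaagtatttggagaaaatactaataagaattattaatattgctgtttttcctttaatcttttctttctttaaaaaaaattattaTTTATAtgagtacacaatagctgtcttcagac

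The ETS match of Snrpc begins 39 bases before the start and the TATA match of Rbm25 begins 32 bases before it. The GC content of these 250 bases was 48.4% for Snrpc and 32.4% for Rbm25. Neither stretch holds the SOX letters searched. Rbm25 also had one of the lowest Sono-seq levels among the members, which is given with the promoter values.

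The remaining members had close Sox2 positions in 1 or 2 lists. Rbm34 (chromosome 8, 129494979) had them in both knockdown lists, 89 bp (Chaf1a.166) and 50 bp (Chaf1a.2122) upstream, with the Renilla position at 4835 bp. Ddx6 (chromosome 9, 44412974), a helicase of mRNA decay and P-bodies, likewise had them at 590 and 629 bp in the knockdown lists and at 1471 bp in the control list. Rbm9 (chromosome 15), a tissue-specific splicing regulator, had Renilla and Chaf1a.2122 positions at 569 and 623 bp and a Chaf1a.166 position at 3204 bp. Ddx17 (chromosome 15), the paralogue of Ddx5, had a Chaf1a.166 position 11 bp from its start at 79377171, and the nearest positions of the other lists lay 10489 bp (Renilla) and 10390 bp (Chaf1a.2122) from its start sites. Sf3a3 had a Chaf1a.166 position 125 bp upstream, and positions of Renilla and Chaf1a.2122 at 5745 and 5682 bp. Dhx29 had a Chaf1a.2122 position 269 bp upstream, and the nearest positions of the other lists were 65612 bp (Renilla) and 65593 bp (Chaf1a.166) away. The scores of these close positions ranked 10738 (Ddx17) and 11719 (Sf3a3) of 15888 and 16149 (Dhx29) of 19319, all in the lower part of their lists. The enrichment over input of the Dhx29 position was 1.93.

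**Figure D2:**
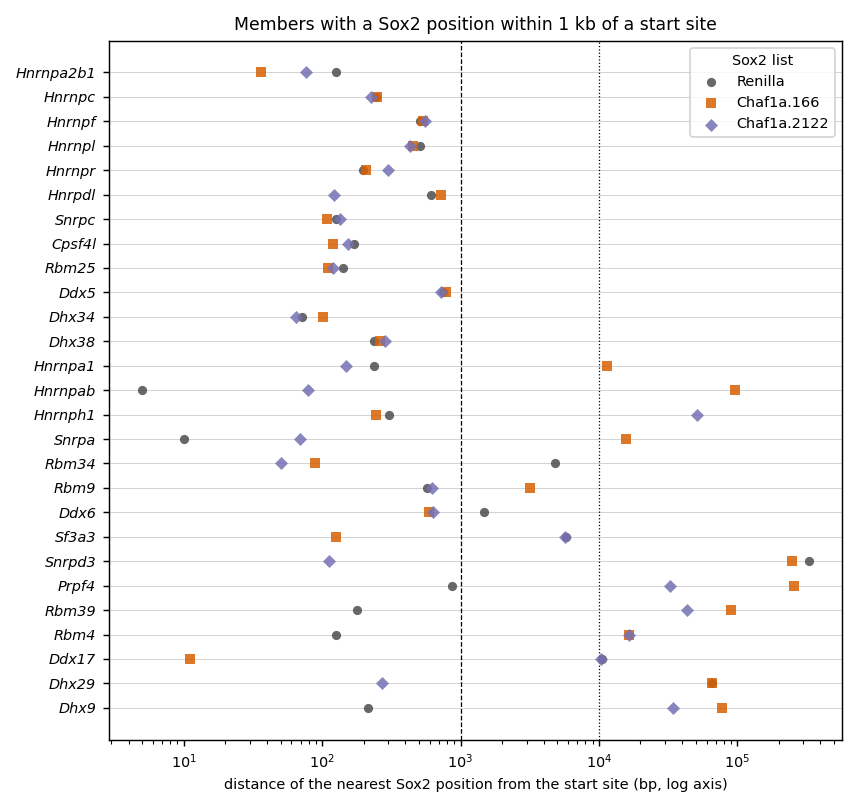
Distance from the start site to the nearest Sox2 position (x axis, bp, log scale) for the 27 members with a position within 1 kb in any list, with a circle for Renilla, a square for Chaf1a.166 and a diamond for Chaf1a.2122; the dashed line is 1 kb and the dotted line 10 kb. The upper 12 members have all 3 marks left of the dashed line, and several members below have 1 mark close to the start and the others beyond 10 kb.

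Presence in one list and absence from another has to be read with the scores, since a missing position is one below that list's threshold. No member had positions within 10 kb in both knockdown lists only, where 2.99% of all genes did. Positions of the Renilla list only were found for 4 members (5.71%), against 3.26% of all genes. They were Prpf4, a protein of the U4/U6 snRNP (864 bp upstream), Rbm39, a coactivator and splicing factor (178 bp upstream), Rbm4, a regulator of alternative splicing (126 bp upstream), and Dhx9, an RNA helicase (216 bp downstream). Their Renilla scores ranked 16956, 15265, 16387 and 16387 of 17681, so all 4 positions stood near the end of that list. With the 3 lists at equal length, 2 members (2.86%) were near Renilla positions only and 2 (2.86%) near positions of both knockdowns only, against 2.87% and 2.99% of other genes, so both counts were at the background. The authors' scores and enrichments are values of single positions and are used only within their list.

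The close positions of members ranked lower than those of other genes in the Renilla and Chaf1a.2122 lists and higher in the Chaf1a.166 list. Their median score rank was 14774 of 17681 in the Renilla list, 8467 of 15888 in the Chaf1a.166 list and 12515 of 19319 in the Chaf1a.2122 list, where rank 1 is the best. Positions within 1 kb of other genes had median ranks of 10851, 9468 and 11659. The authors' enrichment over input at the members' positions had a median of 6.64, 7.53 and 6.83 in these lists, against 8.23, 8.37 and 7.46 over all positions of each list. Where the gene's strand was known, 13 of 19 (Renilla), 12 of 15 (Chaf1a.166) and 14 of 17 (Chaf1a.2122) lay upstream, with median distances of 236, 247 and 187 bp over all positions of the list at members. The upstream split was not worked out for other genes, so it cannot be called particular to the members. With positions held to an enrichment lower bound of at least 2, 19 members (27.1%) had one within 1 kb in any list, against 10.9% of other genes, and 3 (4.29%) had one in all 3 lists, against 2.73%.

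The members with Sfrs symbols, grouped here as SR, differed from the hnRNPs in close Sox2 positions. None of these 5 had a position within 1 kb in any list, but 5 genes are too few to set against the 17.5% of all genes. They take in Sfrs15 and Sfrs2ip, which are now called Scaf4 and Scaf11 and do not carry Srsf names. The nearest were a Chaf1a.166 position 1121 bp from the start of Sfrs15 and a Chaf1a.2122 position 1196 bp from that of Sfrs2, an SR protein of constitutive and alternative splicing. U2af1l4, a relative of the small subunit that recognises the downstream splice site of the intron, had positions of the 3 lists at 4786, 4809 and 4889 bp. Of the SF3 genes, which encode subunits of the U2 snRNP that bind at the branch point, only Sf3a3 had a position within 10 kb.

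The question behind the Sono-seq comparison is whether chromatin of these genes opened or closed when CAF-1 was reduced. Over the 81 member promoters the median value was 0.14 in CAF-1 knockdown cells and 0.14 in Renilla cells, against 0.141 and 0.143 for the other genes. The median log2 ratio of knockdown over control was -0.049 (95% interval -0.112 to 0.022, n = 81 start sites), against -0.009 for the other genes. The interval comes from order statistics over regions, covers no replicate error and takes regions as independent, although start sites of 1 gene share their source. Of the member promoters, 36 (44.4%) had the higher value in knockdown cells. At least 1.2-fold higher were 10 (12.3%), where 11.3% of all promoters were, and at least 1.2-fold lower were 11 (13.6%), where 13.3% were. These shares lie at the background of the table in both directions. The balance rested on the helicases: without the Ddx and Dhx genes, 4 of 63 promoters (6.35%) were higher and 10 (15.9%) lower.

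**Figure D3:**
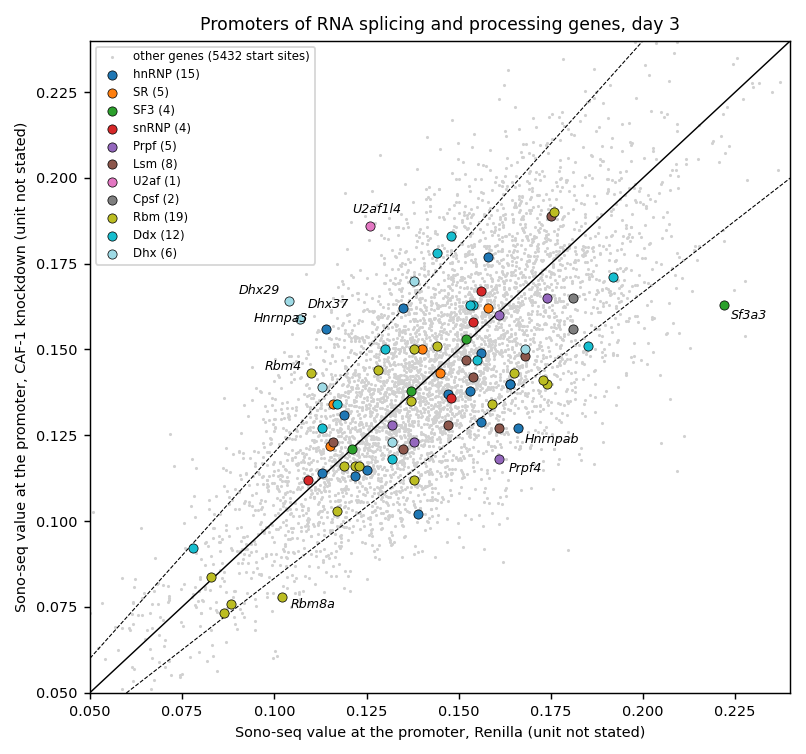
Sono-seq value at each promoter in Renilla cells (x axis) and CAF-1 knockdown cells (y axis), in the deposited unit, for 81 member start sites coloured by family and 5432 start sites of other genes in grey, of which 46 lie outside the axes. The solid line marks equal values and the dashed lines 1.2-fold; 10 member start sites lie above the upper dashed line and 11 below the lower one.

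The highest promoter ratios belonged to 2 DEAH-box helicases. Dhx29 (chromosome 13, 113718000) had a value of 0.164 in knockdown cells and 0.104 in Renilla cells, a log2 ratio of 0.65 at percentile 99.9 of all promoters. Dhx37 (chromosome 5, 125914418), a helicase of ribosome biogenesis, had 0.159 and 0.107, a log2 ratio of 0.58. Dhx38 (0.170 and 0.138, log2 0.30) and Dhx34 (0.139 and 0.113, log2 0.29) were also past 1.2-fold. Dhx35 (0.150 and 0.168, log2 -0.16) and Dhx9 (0.123 and 0.132, log2 -0.11) went the other way, so that 4 of 6 Dhx promoters were higher and past the fold. Of all promoters, 11.3% were at least 1.2-fold higher. A family of 6 promoters is too small to set against that share, and it was not tested. Dhx29 was the only member promoter past 1.5-fold, and no member promoter was 1.5-fold lower. The enhancers of the Dhx family did not share the direction of these 4 promoters: of 22, 2 were at least 1.2-fold higher and 5 lower, with a median log2 ratio of -0.01. Of all enhancers, 15.5% were that much higher and 10.6% lower.

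U2af1l4 (chromosome 7, 31348358) had the third highest promoter ratio, with 0.186 in knockdown and 0.126 in Renilla cells (log2 0.56). Its enhancers pointed the same way. The one at 31392500 gave 0.206 and 0.161 (log2 0.35), with Sox2 positions at 516 bp (Chaf1a.166) and 518 bp (Chaf1a.2122) and a Renilla position at 18295 bp, and the one at 31389600 gave 0.200 and 0.166 (log2 0.27). The next highest promoters were those of Hnrnpa3 (chromosome 2, 75497315), at 0.156 and 0.114 (log2 0.45), and Rbm4 (chromosome 19, 4793877), at 0.143 and 0.110 (log2 0.38). Ddx17 was higher at both of its start sites, with 0.178 and 0.144 at one and 0.183 and 0.148 at the other, each a log2 ratio of 0.31.

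Sf3a3 stood at the other end. This subunit of the SF3A complex starts on chromosome 4 at 124392104, and its promoter had 0.163 in knockdown cells and 0.222 in Renilla cells, a log2 ratio of -0.45. Its mean level was at percentile 97.0 of all promoters, the highest of the members. Both of its enhancers were lower too, at 0.127 and 0.158 (log2 -0.32) and at 0.125 and 0.150 (log2 -0.26). The other SF3 promoters had nearly equal values in the 2 conditions, with 0.153 and 0.152 for Sf3a1, 0.138 and 0.137 for Sf3b1, a frequent target of mutation in blood cancers, and 0.121 in both for Sf3b3. Each of these 3 had a log2 ratio of 0.01.

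The promoters with the highest and a strongly negative ratio, Dhx29 and Sf3a3, are shown because each also had a close Sox2 position in 1 knockdown list. They are chr13:112927430-112927679, plus strand (Dhx29) and chr4:124714611-124714860, plus strand (Sf3a3), 250 bases before the start on GRCm38.p6 from RefSeq, with capitals for the CCAAT box in Dhx29 and the ETS letters in Sf3a3.
Dhx29: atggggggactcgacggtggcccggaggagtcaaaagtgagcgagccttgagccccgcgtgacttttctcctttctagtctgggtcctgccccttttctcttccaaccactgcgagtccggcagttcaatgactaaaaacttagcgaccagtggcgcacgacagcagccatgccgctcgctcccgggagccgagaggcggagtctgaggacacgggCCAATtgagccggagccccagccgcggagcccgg
Sf3a3: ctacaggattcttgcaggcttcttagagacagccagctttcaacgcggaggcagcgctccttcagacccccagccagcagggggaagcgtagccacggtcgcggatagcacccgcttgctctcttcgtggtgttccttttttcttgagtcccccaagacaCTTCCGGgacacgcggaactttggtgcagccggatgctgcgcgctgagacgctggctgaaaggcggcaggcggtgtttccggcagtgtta

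The CCAAT box of Dhx29 begins 34 bases before the start and the ETS letters of Sf3a3 begin 90 bases before it. The GC content of these stretches was 63.2% and 60.4%. No other motif searched was found in either.

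The lowest promoter ratio was that of Prpf4 (chromosome 4, 62069816), with 0.118 in knockdown and 0.161 in Renilla cells (log2 -0.46). All 5 Prpf promoters, of genes named for pre-mRNA processing factors, had the lower value in knockdown cells, but only Prpf4 was past 1.2-fold, and Prpf38b (0.160 and 0.161) was all but equal. Of all promoters, 48.2% had the higher value in knockdown cells, and 5 promoters are too few to set against that share. Hnrnpf varied along the gene. Its log2 ratio was -0.45 at 117850357, -0.27 at 117856799, -0.14 at 117857821 and 0.02 at 117867311, so that the start site nearest to the Sox2 positions was the one without a difference. Hnrnpab had 0.127 and 0.166 (log2 -0.39) and Rbm8a, the Y14 protein of the exon junction complex (chromosome 3, 96433850), had 0.0778 and 0.102 (log2 -0.39). Among the hnRNP promoters as a whole, 5 of 15 were higher, where 48.2% of all promoters were, and the median log2 ratio was -0.11. These 15 start sites belong to 11 genes, with 4 of Hnrnpf and 2 of Hnrnpul1 that had the same values. Sm and U1 snRNP genes differed little, from -0.12 for Snrpg to 0.10 for Snrpd3.

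Levels spread more between members than between conditions. The lowest promoters were those of the X-linked splicing regulator Rbm10 at 20194628, with 0.0731 in knockdown and 0.0864 in Renilla cells, and at 20194884, with 0.0757 and 0.0883. They were followed by Rbm25, with 0.0837 and 0.0829, and by the X-linked Ddx26b, a relative of an Integrator subunit, with 0.0921 and 0.0780. All 139 promoters on the X chromosome had low medians, 0.0788 and 0.0844, whereas Rbm25 lies on an autosome, where the medians were 0.142 and 0.143. Below Sf3a3, the highest members were Rbm38, an RNA-binding p53 target, with 0.190 and 0.176, and Lsm4, a core Lsm protein, with 0.189 and 0.175. Their log2 ratios were 0.12 and 0.11.

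**Figure D4:**
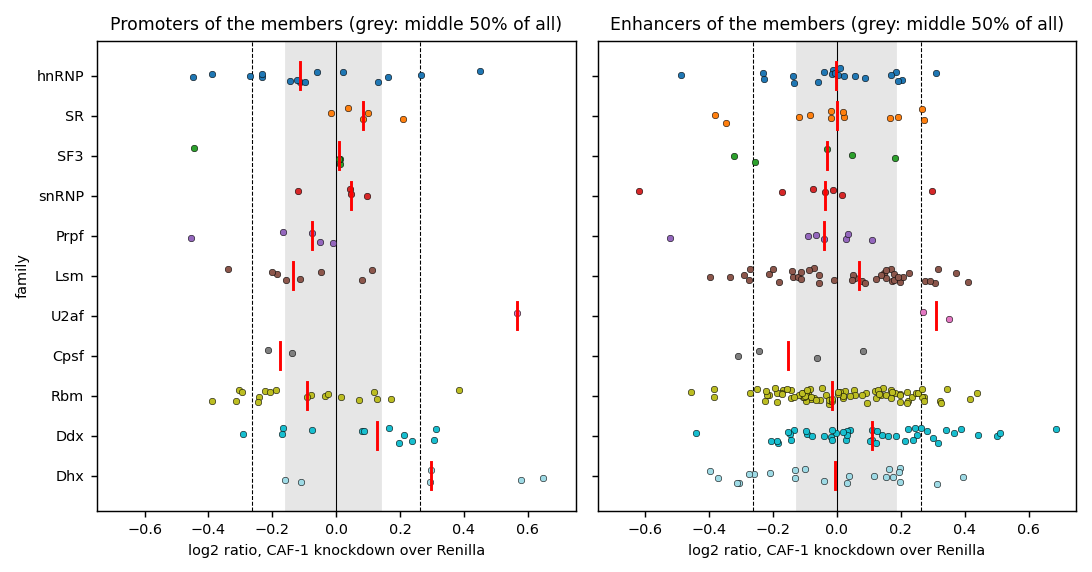
Log2 ratio of the Sono-seq value in CAF-1 knockdown over Renilla cells (x axis) for member promoters (left) and enhancers (right) by family (y axis), with 1 point per region, red bars for family medians, dashed lines at 1.2-fold and a grey band for the middle 50% of all promoters or enhancers of the table. The Dhx promoters have a median of 0.30 and their enhancers of -0.01, and the single U2af promoter lies at 0.56.

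Quartiles of mean level were used to set the member ratios against promoters of like level. From the lowest to the highest quartile, the members' median log2 ratios were -0.058 (n = 22), -0.006 (n = 18), -0.069 (n = 28) and -0.009 (n = 13). Those of other genes were -0.039, -0.020, -0.002 and 0.026. The members lay below the others in 3 of the 4 quartiles, and these differences were not tested. The share at least 1.2-fold higher went both ways. It was 0 of 22 members in the lowest quartile, against 11.2% of other genes, and 5 of 18 (27.8%) in the second, among them Dhx29 and Dhx37, against 9.85%. In the third it was 3 of 28 (10.7%), against 11.3%, and in the highest 2 of 13 (15.4%), against 12.8%.

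The promoter ratio was also set beside Sox2. Member start sites with a Sox2 position within 1 kb in any list had a median log2 ratio of 0.022 (n = 29, with 7 at least 1.2-fold higher and 4 lower). Those without had -0.064 (n = 52, with 3 higher and 7 lower). Among other genes the order was the opposite. Their start sites with Sox2 had -0.027 (n = 922, with 91 higher and 129 lower) and those without had -0.005 (n = 4510, with 523 higher and 594 lower). Neither difference was tested. Of the 13 member start sites with Sox2 in all 3 lists, 3 were at least 1.2-fold higher and 0 lower, beside 39 and 40 of 319 in other genes.

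Enhancers of the members showed no common direction. The 249 enhancers had a median value of 0.135 in both conditions and a median log2 ratio of 0.018 (95% interval -0.016 to 0.046), against 0.028 for the other genes. At least 1.2-fold higher were 34 (13.7%), where 15.5% of all enhancers were, and at least 1.2-fold lower were 22 (8.84%), where 10.6% were. After a scaling that equalised the medians of both conditions across all regions, the split became 25 higher and 25 lower. Enhancers are assigned to genes by the authors' table, and 152 of the 249 (61%) were assigned to more than 1 gene, against 29.2% of the others. An enhancer was counted as a member's where any of its genes is a member, which by itself takes in more shared enhancers. A member had a median of 2 enhancers, against 3 for other genes, and 28 members (40%) had 1 enhancer, against 29.5%.

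The most enhancers belonged to Lsm14b with 31, Rbm9 with 24 and Rbm47, a cofactor of RNA editing, with 16. Those of Lsm14b had a median log2 ratio of 0.14, with 6 at least 1.2-fold higher and 4 lower. Of all enhancers, 15.5% were that much higher and 10.6% lower. Those of Rbm9 had a median of -0.01 and ranged from -0.46 to 0.33, and those of Rbm47 had a median of -0.08. The 14 enhancers of Ddx39, an mRNA export helicase, had a median of 0.15, with 4 higher and none lower. Only the one at 86443000 was assigned to Ddx39 alone. Among the 14 was the largest ratio of all member enhancers, on chromosome 8 at 86232700, with 0.158 in knockdown and 0.098 in Renilla cells (log2 0.69). The promoter of Ddx39, 6397 bp away, had 0.171 and 0.192.

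Other enhancers at the upper end were one of Ddx59 (chromosome 1, 138325050; 0.191 and 0.134, log2 0.51) and another of Ddx39 (chromosome 8, 86125400; 0.154 and 0.109, log2 0.50). They were followed by one of Ddx54 (chromosome 5, 121126300; 0.229 and 0.168) and one of Rbm19, a factor of ribosome biogenesis (chromosome 5, 120774150; 0.140 and 0.103), each with a log2 ratio of 0.44. The lowest was the enhancer of Snrpg on chromosome 6 at 86333900, with 0.0899 and 0.138 (log2 -0.62), followed by that of Prpf39 on chromosome 12 at 66070800, with 0.0895 and 0.129 (log2 -0.52). The single enhancer of Hnrnpc, on chromosome 14 at 52702500, had 0.0731 and 0.103 (log2 -0.49), whereas its promoter was slightly higher at 0.131 and 0.119. One enhancer of Rbm9 (chromosome 15, 76928400) had 0.152 and 0.209 (log2 -0.46) and one of Ddx54 (chromosome 5, 121070400) had 0.184 and 0.249 (log2 -0.44). Across the 70 members, promoter and median enhancer ratios were unrelated as a description, with Pearson's r of 0.06 and Spearman's rho of 0.01. The points share libraries and, in part, enhancers.

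Sox2 was as frequent at member enhancers as at others. A position within 500 bp was present in any list at 14 of 249 member enhancers (5.62%), against 4.77% of the others, and in all 3 lists at 6 (2.41%), against 2.21%. These 6 were assigned to Dhx37, Hnrnpa1, Hnrnpul1, Lsm14b, Rbm38 and Sfrs15. At the Sfrs15 enhancer on chromosome 16 at 90310300 the positions lay 113, 102 and 126 bp away, and the Sono-seq values were 0.0833 and 0.0689 (log2 0.27). The share with Sox2 was thus near that of other genes at the members' enhancers and above it at their start sites, and the difference between the 2 kinds of region was not tested.

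Other genes of the pathway, from a list of 117 names outside the symbol rule, were looked at in the same way, and 49 of them are in the table. Their promoters, with 1 mean ratio per gene, had a median log2 ratio of 0.007. Of the 49, 6 were at least 1.2-fold higher and 3 lower. By start site, 11.3% of all promoters were that much higher and 13.3% lower, and the counts were not tested against these shares. A Sox2 position in any list lay within 10 kb for 24 (49%) and within 1 kb for 13 (26.5%), between the members and all genes. Sfpq, a partner of Nono in nuclear paraspeckles, had positions at 9, 16 and 84 bp of its start, and its promoter values were 0.140 and 0.130. Khdrbs1, the splicing regulator Sam68, had them at 253, 295 and 214 bp, with 0.138 and 0.137. Bcas2 of the spliceosomal Prp19 complex had them at 154, 71 and 127 bp, with 0.152 and 0.154. Pabpn1, the nuclear poly(A)-binding protein, had them at 223, 156 and 259 bp, with 0.149 and 0.150. Tial1, an RNA-binding regulator of splicing and translation, had them at 324, 246 and 274 bp, and its promoter was lower in knockdown cells, at 0.142 and 0.168 (log2 -0.24). The other 4 had nearly equal Sono-seq values in both conditions.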

How the data were processed

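Of 61 samples, 12 were used: 6 Sono-seq and 6 Sox2 ChIP-seq libraries of day 3, grouped by title. The other 49 (ATAC-seq, RNA-seq, H3K9me3) were not analysed here. The deposited Sono-seq values are treated as a score, since neither their unit, their scaling nor the way 3 libraries became 1 value is given in the sources used here. They cover ES cell enhancers and promoters of a published set, per the file headers. The planned limma test was therefore replaced by log2 ratios without a pseudocount. Each Sox2 position has, per the file headers, a score, an enrichment ratio over input with its lower bound, an E-value and a q-value (false discovery rate). Within 1 kb of members, every q-value deposited by the authors was at most 0.00064. Per the submitters' processing notes, the build was mm9 and the tools included Bowtie and BWA 0.7.8. The peak caller was not given in the sources used here.

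Distances run from start sites of the Sono-seq table to the nearest position, and a fold of 1.2 counts as different. Strands and current names came from a RefSeq gene table of GRCm38.p6, which held 80 of 81 member transcripts, and 60 of 70 members had a RefSeq promoter sequence. Python 3.11.15, numpy 2.4.6 and pandas 2.3.3 were used, and the distance and fold steps were tested on simulated data. The members and the gene list were chosen with earlier results of these data known. Named genes are the 5 highest and 5 lowest ratios of promoters and enhancers, the extremes of level and enhancer number, all members with Sox2 within 1 kb or in the Renilla list only, and the SF3, U2af and Cpsf genes. Other genes named beside them were chosen after their values were seen. Alternatives were other scalings, pseudocounts, level filters, folds, distances, list lengths and families.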

Additional observations from a re-analysis of the deposited data

How the results depend on the processing

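No median log2 ratio changed direction past the fold. The small Sox2 counts by list did change sides against other genes. Members near the Renilla list only were 5.71% against 3.23% in the main setting, and 1.43% against 3.13% at 50 kb. Members near both knockdown lists only were 0% against 3.03% in the main setting, and 2.86% against 1.32% at 1 kb. The median log2 ratios of member promoters ranged from -0.077 (without the Ddx and Dhx helicases) to -0.021 (1 value per gene). Those of enhancers ranged from -0.002 (without helicases) to 0.030 (scaled over promoters), with -0.001 when scaled over all regions, so their sign is not fixed. No paired analysis was possible because a single Sono-seq value per condition is deposited, and leaving out replicates was not run for the same reason.

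The counts of regions past 1.2-fold moved as follows, with higher before lower. Adding 0.05 to both values gave 5 and 4 promoters and 10 and 9 enhancers. Regions above the median level alone gave 5 and 7 promoters and 14 and 7 enhancers. A fold of 1.5 gave 1 and 0 promoters and 1 and 1 enhancers. Without helicases, 4 and 10 promoters and 21 and 16 enhancers were counted, so that lower promoters outnumbered higher ones. Enhancers assigned to 1 gene gave 14 and 8.

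Counts of members near Sox2 are given for Renilla, Chaf1a.166, Chaf1a.2122 and all 3 lists in that order, of 70 members unless stated, each set followed by the shares of other genes. They were 57, 49, 58 and 48 at 50 kb (66.3%, 65.8%, 70.3% and 55.7%), with 1 in the Renilla list only (3.13%). At 2 kb, 1 member was near both knockdowns only (1.83%). An enrichment lower bound of 2 gave 19 for Renilla (19.7%), 17 for Chaf1a.2122 (20.7%), 10 for all 3 (11.8%) and 2 for both knockdowns only (2.62%). Lists of equal length gave 2 in both knockdowns only (2.99%) and 2 in Renilla only (2.87%). The settings from here on were chosen after seeing the data. At 1 kb the counts were 21 for Renilla (10.4%), 20 for Chaf1a.2122 (12.4%), 12 for all 3 (5.94%) and 2 for both knockdowns only (1.32%). At 500 bp they were 15, 13, 16 and 8 (7.67%, 7.44%, 9.36% and 4.17%), with 22 in any list (13.1%) and 2 in both knockdowns only (1%). At 1 kb with the enrichment bound they were 12, 9, 9 and 3 (6.1%, 6.31%, 6.83% and 2.73%), with 19 in any list (10.9%) and 1 in both knockdowns only (1.08%). At 1 kb without hnRNP genes they were 12, 10, 12 and 6 of 59 (10.4%, 10%, 12.4% and 5.94%), with 18 in any list (17.2%) and 2 in both knockdowns only (1.32%). Of 116 alternative values, 66 stayed within the spread or within 1.5 times. Shorter distances lower every count by construction. Read depth was not known, so a missing position may lie just below a list's threshold.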
